A study of Mus musculus with 8 samples.

Results

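Glutamate and GABA identity was followed through 6 genes, 3 vesicular glutamate transporters (*Slc17a7*, *Slc17a6* and *Slc17a8*) and 3 genes of GABA synthesis and loading (*Gad1*, *Gad2* and *Slc32a1*). These 6 genes were chosen by name, and all 6 are among the 46517 genes of the bulk RNAseq tables and the 24051 genes of the snRNAseq matrices. They were measured in hippocampi of adult *Gfap-Cre;Wls fl/-* (mutant) and *Gfap-Cre;Wls fl/+* (control) mice, labelled male, with 2 mutant and 2 control samples for bulk RNAseq and 2 and 2 for snRNAseq, each from both hippocampi of 1 mouse. Every mouse carries *Gfap-Cre*, which acts in a subset of cortical progenitors and not in every hippocampal cell. In recombined cells the mutant has no working copy of *Wls*, which codes for a chaperone needed to secrete Wnts, and the control keeps 1. The comparison asks what the loss of *Wls*, which leaves few dentate granule cells (DGCs), does to transmitter genes in the tissue and in each type of neuron. According to the paper, the DGCs left in the mutant lie mainly in the ventral dentate gyrus.

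Glutamate is loaded into synaptic vesicles by the vesicular glutamate transporters VGLUT1 (*Slc17a7*), VGLUT2 (*Slc17a6*) and VGLUT3 (*Slc17a8*). GABA is made from glutamate by the decarboxylases GAD67 (*Gad1*) and GAD65 (*Gad2*) and loaded by the vesicular transporter VGAT (*Slc32a1*). Pyramidal cells, DGCs and mossy cells (MCs) of the hippocampus release glutamate, and local interneurons release GABA. DGCs are known to hold some GAD67 in addition. VGLUT3 is known from a class of interneurons that also release cholecystokinin (*Cck*).

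The GABA genes lie on chromosome 2 of GRCm38 (gencode vM21), with *Gad2* (ENSMUSG00000026787) at chr2:22622205-22693874, *Gad1* (ENSMUSG00000070880) at chr2:70553072-70602014 and *Slc32a1* (ENSMUSG00000037771) at chr2:158610767-158615748, each on the plus strand. *Slc17a7* (ENSMUSG00000070570) and *Slc17a6* (ENSMUSG00000030500) lie on the plus strand of chromosome 7, at chr7:45163949-45176142 and chr7:51622006-51671119. *Slc17a8* (ENSMUSG00000019935) lies on the minus strand at chr10:89574020-89621253. The first part of *Gad1*, chr2:70553072-70563357, is overlapped by the antisense gene *Gad1os*. The strand setting of the bulk counting is not given in the sources used here, so bulk reads of the pair may be exchanged, but *Gad1os* held only 2 to 9 expected counts per library against 17655 to 29768 for *Gad1*.

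The stretches before the RefSeq starts of the 2 decarboxylase genes are shown because DGCs, as described below, had more UMIs of *Gad1* than of *Gad2*. In CPM of *Gad1*, DGCs overlapped with oligodendrocytes. They are from RefSeq (GRCm38.p6), plus strand, at chr2:70561879-70562041 for *Gad1* and chr2:22622077-22622204 for *Gad2*, and bases that gencode places in an exon were left out. The *Gad1* stretch lies inside the longer gencode span of the gene and of *Gad1os*. Capitals mark matches, on either strand, to the TATA motif TATAAA, the E box CAGGTG or the GC box GGGCGG.
Gad1: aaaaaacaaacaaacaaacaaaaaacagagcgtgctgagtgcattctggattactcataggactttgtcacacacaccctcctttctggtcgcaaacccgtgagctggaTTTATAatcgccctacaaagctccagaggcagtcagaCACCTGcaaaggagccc
Gad2: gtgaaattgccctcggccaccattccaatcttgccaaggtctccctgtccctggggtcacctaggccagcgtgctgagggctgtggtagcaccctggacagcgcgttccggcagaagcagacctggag
The *Gad1* stretch held 1 TATAAA and 1 CAGGTG, both read on the minus strand. Among 32851 RefSeq promoters, 7.78% and 11.8% held these in the same 163 bases. GGGCGG was not in the *Gad1* stretch and is in 18.4% of promoters over these bases. The *Gad2* stretch held none of the 3 motifs, which occur in 6.38%, 9.29% and 13.8% of promoters over the same 128 bases. G and C made up 46.6% of the *Gad1* stretch and 62.5% of the *Gad2* stretch. A match describes letters only.

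Bulk libraries held 56002381 to 79576196 expected counts, and snRNAseq libraries 5304 to 10460 nuclei with median UMIs of 4128 to 7545 per nucleus. *Wls* was at 13.2 and 13.03 CPM in control and 3.67 and 6.87 CPM in mutant bulk libraries. Contrary to the label, *Xist* was high and *Ddx3y* low in replicate 2 of both genotypes in bulk RNAseq (*Xist* 517.8 and 230.1 CPM, against 1.04 and 1.44 CPM in replicate 1), whereas Y-linked genes were present in all 4 snRNAseq samples. Of 21 deposited types of nuclei, 18 had at least 10 nuclei in every sample. The markers of 3 types went against their name. Inhibitory neurons 14 and excitatory neurons 19 were among the 3 types with the most summed meningeal transcripts, at 1196 to 1894 and 1704 to 3499 CPM, and inhibitory neurons 14 had 2208 to 3166 CPM of vascular transcripts. Inhibitory neurons 15 had *Slc17a7* in 47.6% to 100% of nuclei and *Gad2* in at most 3.92%, and 1 nucleus in control replicate 2. Shared barcodes were few, at most 0.309% of the smaller library of any pair.

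Per unit of transcript length, *Slc17a7* was by far the most abundant member in bulk RNAseq, at 1081 and 1045 TPM in control replicates 1 and 2 and 1042 and 1057 TPM in mutant replicates 1 and 2. *Gad1* followed, at 245.1 and 245.0 TPM in control and 229.8 and 290.3 TPM in mutant replicates. *Gad2* was at 68.8 to 82.8 TPM and *Slc32a1* at 48.6 to 61.1 TPM. The 2 rare members were *Slc17a8*, at 5.88 to 8.46 TPM, and *Slc17a6*, at 2.57 to 4.01 TPM. No library changed this order. *Gad1* exceeded *Gad2* by 3.03-fold to 3.56-fold in TPM, and *Slc17a7* exceeded *Slc17a6* by 260.5-fold to 411.3-fold.

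The GABA genes were somewhat higher in mutant than in control bulk libraries, and none of the 6 members was called. On the scale of CPM after TMM, *Gad2* was at 190.5 and 182.6 in control and 221.1 and 229.3 in mutant replicates. Both mutant values lay above both controls, with a log2 fold change (log2 FC) of 0.27 (standard error, SE, 0.05, edgeR FDR = 0.097). *Slc32a1* was at 69.4 and 62.9 CPM in control and 80.0 and 81.8 CPM in mutant replicates, a log2 FC of 0.29 (SE 0.06, edgeR FDR = 0.11). *Gad1* was at 312.8 and 305.4 CPM in control and 335.4 and 374.3 CPM in mutant replicates. Its log2 FC was 0.20 (SE 0.07, edgeR FDR = 0.22). The groups did not overlap for these 3 genes in CPM, but for *Gad1* they overlapped in TPM, where its log2 FC was 0.08.

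*Slc17a8* had the largest bulk difference among the members, from 11.7 and 11.8 CPM in control to 15.2 and 17.6 CPM in mutant replicates. The log2 FC was 0.48 (SE 0.11, edgeR FDR = 0.13). *Slc17a7*, the main glutamate transporter of the hippocampus, was at 1480 and 1423 CPM in control and 1550 and 1490 CPM in mutant replicates, with a log2 FC of 0.07 (SE 0.06, edgeR FDR = 0.59) that became -0.02 in TPM. *Slc17a6* overlapped between genotypes, at 7.21 and 8.09 CPM in control and 8.75 and 5.37 CPM in mutant replicates. Its log2 FC was -0.12 (SE 0.25, edgeR FDR = 0.85).

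Of the 6 members, 0 passed FC above 3 and FDR below 0.05 in bulk RNAseq by edgeR, against 0.218% of the 20687 genes tested. An unadjusted p below 0.05 was reached by 4 members in edgeR and by 4 in DESeq2, which called 0. Of all genes tested, 18.8% reached it in edgeR. DESeq2 gave an FDR of 0.0015 for *Gad2*, 0.016 for *Slc32a1* and 0.022 for *Slc17a8*, under the fold threshold, and called 125 genes against 45 in edgeR. Since *Xist* split the libraries by replicate number, each number was also compared alone, a choice made after the values were seen. The log2 FC between the replicate 1 and between the replicate 2 libraries was 0.21 and 0.33 for *Gad2*, 0.20 and 0.39 for *Slc32a1*, 0.09 and 0.30 for *Gad1*, 0.37 and 0.58 for *Slc17a8*, 0.06 and 0.07 for *Slc17a7*, and 0.27 and -0.58 for *Slc17a6*. Both mutant libraries were above both control libraries for 5 of 6 members and for 25.8% of all genes. An exact permutation test of 2 against 2 samples cannot give a p below 0.33, so each test here rests on the spread that edgeR shares between genes.

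**Figure D1:**
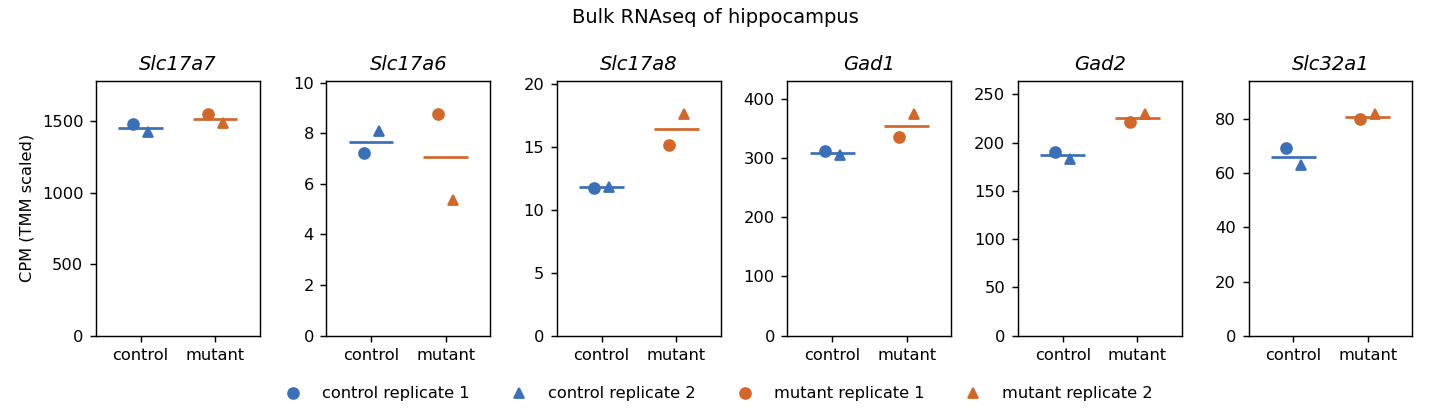
Level of each member in bulk RNAseq (CPM after TMM scaling, y axis from 0), with 1 point per library and a line at the mean of the 2 libraries of each genotype. *Gad1*, *Gad2*, *Slc32a1*, *Slc17a8* and *Slc17a7* have both mutant points above both control points, and *Slc17a6* overlaps.

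Of 10 DGC markers, 7 fell in the same libraries. Their summed level was 964 and 912 CPM in control and 283.5 and 235.7 CPM in mutant replicates. Of 12 interneuron markers none was called, and their summed level was 337.4 and 354.8 CPM in control and 454.1 and 443.3 CPM in mutant replicates. A higher sum was not particular to interneurons. CA1 markers summed to 439.3 and 544.3 CPM in control and 664.2 and 817 CPM in mutant replicates. CA3 markers overlapped, at 322.5 and 295.5 CPM in control and 308.3 and 291.3 CPM in mutant replicates. In bulk tissue, fewer cells of a type and less RNA per cell cannot be told apart. Choroid plexus markers were at 855.5 and 6023 CPM in mutant and 259.3 and 201.7 CPM in control replicates. Their part in the members' values was not tested.

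Other genes of the transmitter pathways gave no call in bulk RNAseq. Of 27 GABA neuron identity genes tested, 0 were called, with a median log2 FC of 0.28 beside 0.01 over all genes. In this list *Pvalb*, a calcium-binding protein of fast-spiking interneurons, was at 19.4 and 20.9 CPM in control and 31.1 and 33.7 CPM in mutant replicates (log2 FC 0.69, FDR = 0.043, edgeR). *Htr3a*, a serotonin receptor of another interneuron class, had a log2 FC of 0.69 (FDR = 0.11, edgeR). Of 12 glutamate neuron identity genes, 0 were called, with a median of -0.09. Here *Neurod1* and *Bhlhe22*, transcription factors that DGCs express, were at -0.85 and -0.70 (FDR = 0.025 and 0.026, edgeR), under the fold threshold. Of 13 genes of glutamate synthesis and uptake 0 were called (median 0.04), and the astrocyte glutamate transporter *Slc1a2* was at -0.48 (FDR = 0.073, edgeR). Of 6 genes of GABA breakdown and uptake 0 were called (median 0.05), and the GABA transporter *Slc6a13* was at -1.38 (FDR = 0.059, edgeR). Of 8 genes of other transmitters tested 0 were called (median -0.21). In this list *Hdc*, which makes histamine, was at 1.09 (FDR = 0.091, edgeR). *Dbh*, which makes noradrenaline, was at -3.12 (FDR = 0.10, edgeR), from very low levels. These were 0.709 and 0.328 CPM in control and 0.051 and 0.063 CPM in mutant replicates.

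In snRNAseq, where each nucleus carries a deposited type, the members marked types of neurons. Since the authors clustered nuclei on all genes and named types in part from *Slc17a7* and the *Gad* genes, differences between types are a description, with no test. UMIs of a type were summed per sample and are given as CPM of all UMIs of that type and sample, which is not adjusted for gene length. Means ± SD are over the 4 samples of both genotypes.

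*Slc17a7* was present throughout the principal neurons. It was highest in excitatory neurons 8 (339.3 ± 45.2 CPM, n = 4), followed by CA2 (320.1 ± 44.4), CA3 (309.1 ± 45.4), excitatory neurons 13 (268 ± 45.1), MCs (267.9 ± 38.7), CA1 (258.9 ± 33.9), excitatory neurons 10 (246.2 ± 47.4), DGCs (245.1 ± 45.9) and excitatory neurons 7 (214.2 ± 26.9). Neighbours in this order differed by less than the larger of their SDs. The lowest value in these 9 types was 188.4 CPM, in DGCs of mutant replicate 1. The highest in the other 9 types was 98.9 CPM, in excitatory neurons 19 of mutant replicate 2, and in astrocytes it was 48.8 ± 3.93 CPM, with a UMI in 9.58% to 15.1% of nuclei. A level like that of astrocytes is not read as expression here. This is a choice of reading, and whether astrocytes express the gene was not tested.

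*Slc17a6* had a narrower range. It was highest in excitatory neurons 7, at 107.1 and 101.0 CPM in control and 79.6 and 41.8 CPM in mutant replicates, and next in excitatory neurons 13, at 49.6 and 45.9 CPM in control and 51.3 and 38.4 CPM in mutant replicates. CA1 held 19.3 and 13.4 CPM in control and 16.3 and 6.63 CPM in mutant replicates. Excitatory neurons 10, at 12.9 ± 4.31 CPM, did not differ from CA1 (13.9 ± 5.41) beyond the spread. CA3 was at 1.54 ± 0.472 CPM and DGCs at 2.77 ± 2.99 CPM, like oligodendrocytes at 3.03 ± 2.80 CPM.

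*Slc17a6* and *Slc17a7* were often seen in the same nuclei. In CA1, 70.2% to 95.4% of nuclei with an *Slc17a6* UMI also had one of *Slc17a7*, and in excitatory neurons 7, 39.3% (in mutant replicate 1) to 81.3%. Within CA1, the 121 to 130 nuclei per sample with an *Slc17a6* UMI were compared with the other CA1 nuclei over the listed genes, a comparison chosen after the values were seen. *Fn1*, from the list of subiculum markers, was 3.85-fold to 7.69-fold higher in nuclei with *Slc17a6* (162 to 232.1 CPM against 13.1 to 52.9 CPM). *Ntng1*, an axon guidance gene, was 1.86-fold to 3.34-fold higher and *Nts*, coding for neurotensin, 2.00-fold to 3.89-fold. *Fezf2*, from the list of neocortical layer markers, was 1.67-fold to 2.55-fold higher. Of the list of CA3 markers, *Cpne4* was 2.05-fold to 2.45-fold higher, whereas *Grik4* was at 0.366 to 0.529 of its level in the other nuclei. The CA1 marker *Fibcd1* was at 0.320 to 0.530 of its level in the other nuclei, and *Slc17a7* at 0.714 to 0.818. Ratios are of CPM with 10 CPM added to each. Each had the same direction in all 4 samples. Genes other than *Slc17a7* were picked by their smallest or largest ratio over these samples, so their shared direction was set by the choice. Mean UMIs per nucleus were 1.159-fold to 1.365-fold higher in CA1 nuclei with *Slc17a6*.

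*Slc17a8* was nearly confined to 1 type. Inhibitory neurons 5 held 113 and 205 UMIs in control and 98 and 251 UMIs in mutant replicates, or 38.3 and 43.3 CPM against 29.4 and 29.5 CPM. Both mutant samples were below both controls, as for 21.5% of all genes tested in this type (CPM after TMM). The 3 inhibitory types 5, 12 and 18 together gave 84.3% to 90.7% of all *Slc17a8* UMIs of a sample, from 7.40% to 15.5% of the nuclei. A UMI was seen in 8.92% (exact 95% interval 6.26% to 12.2%) and 11.9% (8.88% to 15.5%) of control and 3.94% (2.59% to 5.73%) and 6.98% (5.46% to 8.77%) of mutant nuclei of inhibitory neurons 5. Thinned to 1500 UMIs per nucleus, the shares were 2.36% and 4.30% in control and 1.97% and 2.16% in mutant. In inhibitory neurons 18 no *Slc17a8* UMI was seen, among 23 and 24 control and 52 and 75 mutant nuclei, which allows shares of nuclei with a UMI, not of nuclei that express the gene, of up to 13.04%, 12.5%, 5.77% and 4.00% (3 nuclei of the total).

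GABA genes were also seen in the nuclei with *Slc17a8*. In inhibitory neurons 5, all 34 and 47 nuclei with an *Slc17a8* UMI in control replicates, and 23 of 26 and 67 of 68 in mutant replicates, also had a UMI of *Gad1*, *Gad2* or *Slc32a1*. Of all nuclei of the type, which was named in part from the *Gad* genes, 94.8% and 98.5% in control and 87.2% and 96.1% in mutant replicates had one. In the same comparison, also chosen after the values were seen, *Cck* was 3.33-fold to 4.93-fold higher in nuclei with *Slc17a8* than in the other nuclei of the type. The cannabinoid receptor gene *Cnr1*, which *Cck* interneurons express, was 3.32-fold to 4.66-fold higher, and *Gad1* 1.26-fold to 1.72-fold. *Vip*, a peptide of another interneuron class, was at 0.109 to 0.294 of its level in the other nuclei. *Reln* and *Ndnf*, genes of neurogliaform cells, were at 0.331 to 0.455 and 0.236 to 0.435. *Gad2* was at 0.734 to 0.958. The directions held in all 4 samples, with mean UMIs per nucleus 1.26-fold to 1.49-fold higher in nuclei with *Slc17a8*. *Cck*, *Cnr1*, *Vip*, *Reln* and *Ndnf* were picked by their smallest or largest ratio over these samples, so their shared direction was set by the choice.

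**Figure D2:**
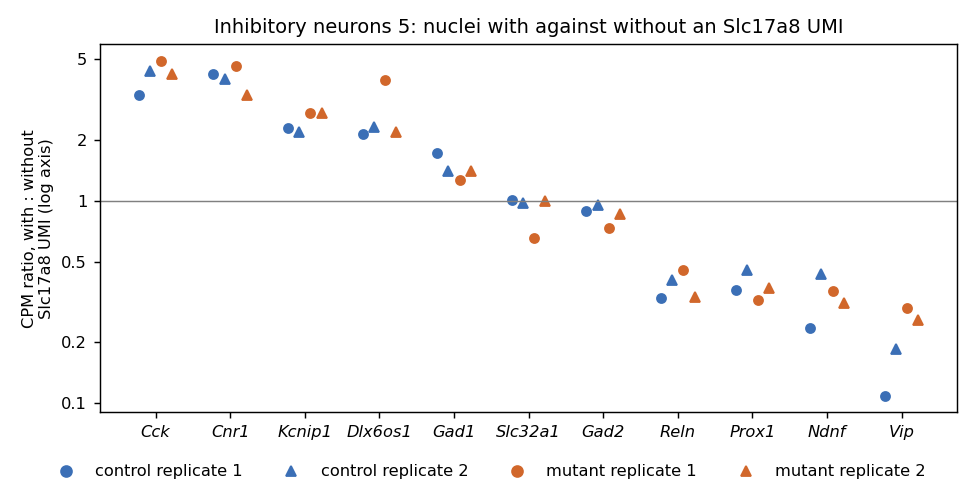
Ratio of CPM (10 CPM added) between nuclei of inhibitory neurons 5 with and without an *Slc17a8* UMI, on a log axis, with 1 point per snRNAseq sample and a line at 1. *Cck*, *Cnr1*, *Kcnip1*, *Dlx6os1* and *Gad1* lie above 1 in every sample, *Gad2*, *Reln*, *Prox1*, *Ndnf* and *Vip* below it, and *Slc32a1* at 0.654 to 1.01. Genes other than *Gad1*, *Gad2* and *Slc32a1* were picked by these ratios, which set their direction.

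*Gad1*, *Gad2* and *Slc32a1* all peaked in inhibitory neurons 18, 12 and 5, though in different order. *Gad2* was at 877.3 ± 64.1 CPM in type 18, 670 ± 25.1 in type 12 and 278.9 ± 34.7 in type 5 (n = 4 each). *Gad1* was at 556.7 ± 80.8, 494.6 ± 48.9 and 216.3 ± 38.8 CPM, and types 18 and 12 did not differ beyond the spread. *Slc32a1* was at 141.9 ± 26.7, 107.7 ± 19.8 and 132.3 ± 22.4 CPM, and type 12 was below types 18 and 5 by more than the larger SD of each pair, whereas types 18 and 5 did not differ beyond the spread. Between 87.3% and 100% of nuclei of these types had a UMI of at least 1 of the 3 genes. Outside them, the next level of *Gad2* was 29.7 ± 10.4 CPM, in inhibitory neurons 14, and that of *Slc32a1* was 10.9 ± 3.31 CPM in the same type.

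**Figure D3:**
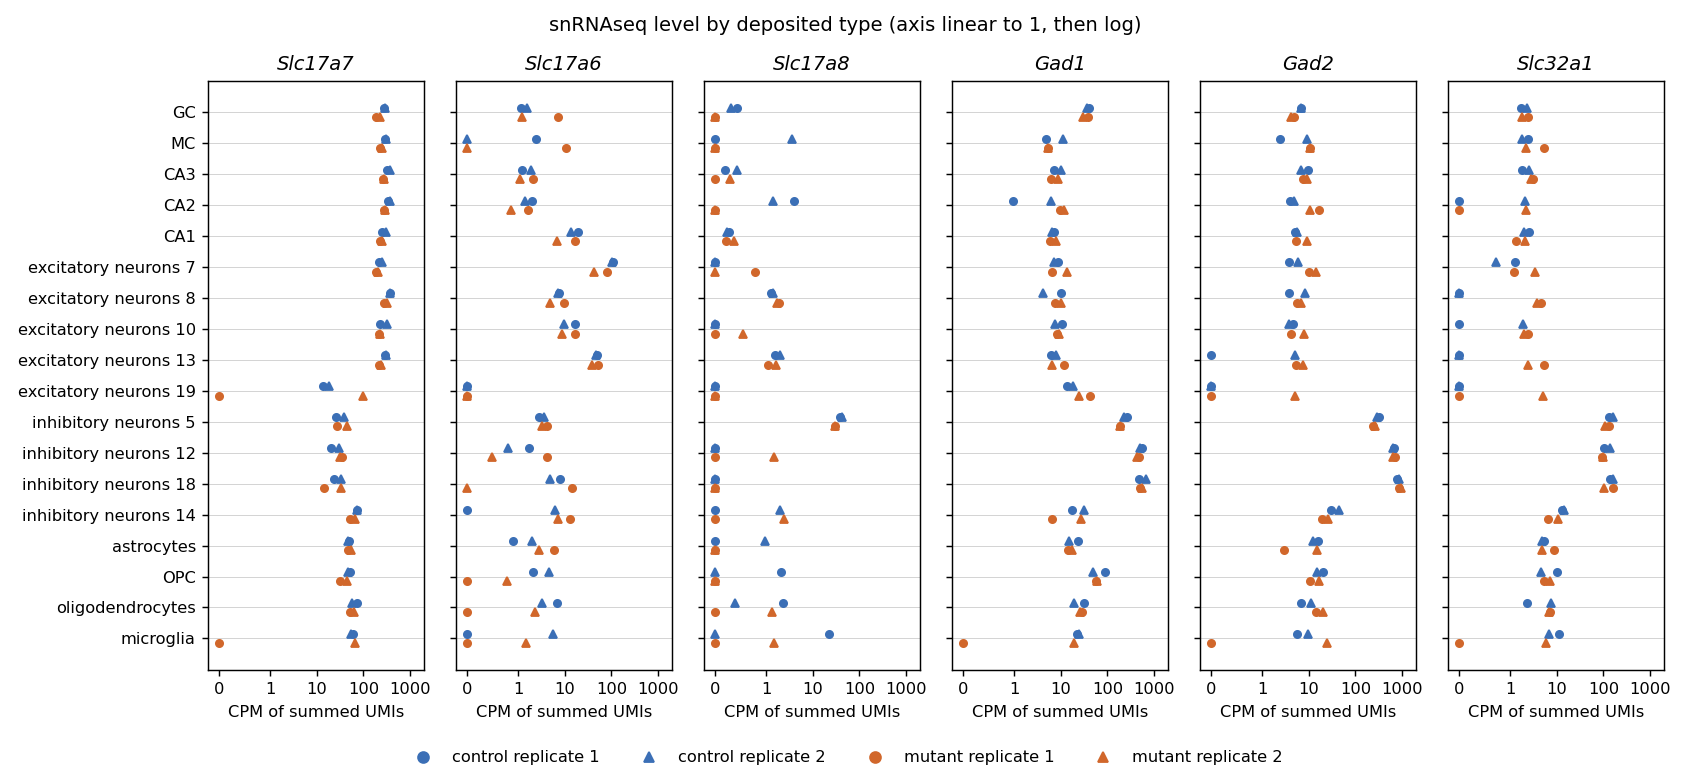
CPM of summed UMIs for each member (panels) in 18 deposited types (rows), with 1 point per sample, on an axis that is linear up to 1 CPM and logarithmic above. *Slc17a7* spans the glutamatergic types, *Slc17a6* peaks in excitatory neurons 7 and 13, *Slc17a8* in inhibitory neurons 5, and *Gad1* has 48.9 to 90.2 CPM in OPC and 29.5 to 39.3 CPM in GC, where it overlaps with oligodendrocytes.

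*Gad1* differed from the other GABA genes in having a second tier. It was at 64.4 ± 17.9 CPM in oligodendrocyte precursor cells (OPCs) and 36.2 ± 4.55 CPM in DGCs, against 26.3 ± 5.06 CPM in oligodendrocytes, 17.5 ± 4.04 CPM in astrocytes, 7.92 ± 1.65 CPM in CA3 and 6.75 ± 0.946 CPM in CA1. OPCs were above DGCs in every sample, and DGCs overlapped with oligodendrocytes.

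In DGCs (the deposited type GC), *Gad1* had 447 and 608 UMIs in 2336 and 2007 control nuclei and 16 and 101 UMIs in 90 and 463 mutant nuclei. The levels were 39.3 and 37.4 CPM in control and 38.6 and 29.5 CPM in mutant replicates, and overlapped. *Gad2*, in the same nuclei, was at 6.68 and 6.64 CPM in control and 4.83 and 4.09 CPM in mutant replicates, and *Slc32a1* at 1.67 and 2.34 CPM against 2.42 and 1.75 CPM. In CA1, *Gad2* was at 6.30 ± 1.98 CPM and *Slc32a1* at 1.96 ± 0.479 CPM. DGCs therefore stood above CA1 in *Gad1* and were at the level of CA1 in the 2 other GABA genes.

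A *Gad1* UMI was seen in 17.1% (exact 95% interval 15.6% to 18.7%) and 24.9% (23.0% to 26.8%) of control DGC nuclei and in 15.6% (8.77% to 24.7%) and 18.1% (14.7% to 22.0%) of mutant DGC nuclei, at median depths of 4628, 7688, 4242 and 7126 UMIs. In oligodendrocytes it was 4.11% to 6.03% at median depths of 1727 to 2339 UMIs. In CA3, with deeper nuclei of 6790 to 15190 median UMIs, it was 4.66% to 12.5%. After each nucleus was thinned to 1500 UMIs, the share was 4.44% to 5.74% in DGCs, 3.21% to 4.41% in oligodendrocytes, 0.717% to 1.29% in CA3 and 6.74% to 12.8% in OPCs. DGCs were thus several times above the pyramidal types at equal depth, and close above oligodendrocytes. For *Gad2* the thinned share was 0.432% to 1.20% in DGCs and 1.07% to 1.57% in CA3.

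The ratio of the 2 decarboxylase transcripts, both counted in the same nuclei, differed between types. *Gad1* made up 85.5% (exact 95% interval 82.2% to 88.4%) and 84.9% (82.1% to 87.5%) of *Gad1* plus *Gad2* UMIs in control DGCs, and 88.9% (65.3% to 98.6%) and 87.8% (80.4% to 93.2%) in mutant DGCs. OPCs were alike, at 81.5% and 76.8% in control and 84.6% and 78.8% in mutant replicates. In inhibitory neurons 5 the share was 41.7% to 45.8%, in type 12 it was 40.1% to 45.5% and in type 18 it was 36.8% to 43.2%. Astrocytes had 54.3% to 83.3% and oligodendrocytes 56.4% to 82.4%, from at most 101 UMIs per sample. In each sample the interval of DGCs lay above that of each of the 3 inhibitory types.

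**Figure D4:**
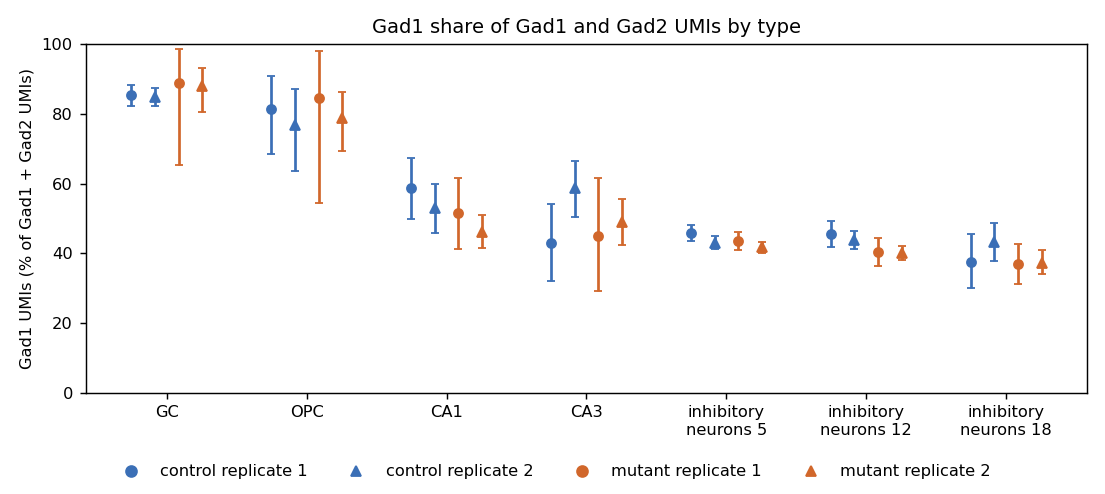
*Gad1* UMIs as a percentage of *Gad1* plus *Gad2* UMIs (y axis, 0 to 100) in 7 deposited types, with 1 point per sample and bars for exact 95% binomial intervals, which cover counting error only. GC and OPC lie at 76.8% to 88.9%, CA1 and CA3 at 42.9% to 58.8% and the inhibitory types at 36.8% to 45.8%.

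DGC nuclei with a *Gad1* UMI were compared with those without, again after the values were seen. Their *Slc17a7* was at 0.974 to 1.37 of the level in nuclei without *Gad1*, and their *Gad2* at 1.05 to 1.83. The 12 interneuron markers summed to 79.4 and 98.5 CPM in control DGCs and to 198 and 110.9 CPM in mutant DGCs, against 79.6 to 147 CPM in CA1, where *Gad1* was low, and 5721 to 6840 CPM in inhibitory neurons 5. Of the 198 CPM in mutant replicate 1, 128.0 CPM was *Erbb4*. *Dlx1*, a defining gene of interneurons, was at 1.23 and 1.11 CPM in control and 2.42 and 0 CPM in mutant DGCs, and *Lhx6* at 0.615 and 0.246 CPM in control and 4.83 and 0.584 CPM in mutant DGCs, each mutant value from at most 2 UMIs. *Prox1*, a transcription factor of DGCs, was at 282.8 to 332.5 CPM. In OPCs the interneuron list summed to 2605 to 2754 CPM, most of it *Erbb4* at 1928 to 2122 CPM, and *Dlx2* was at 0 in all 4 samples. In OPCs *Dlx1* and *Dlx6os1* were at 0 in replicate 1 of both genotypes, at 3.41 CPM each in control replicate 2 and at 0.777 and 6.99 CPM in mutant replicate 2. *Gad1os* was at 4.66 and 5.84 CPM in control and 4.83 and 7.88 CPM in mutant DGCs, and at 0.795 to 1.10 CPM in CA1.

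UMIs of both transmitters were also seen in the same nuclei. A UMI of *Slc17a6* or *Slc17a7* together with one of *Gad1*, *Gad2* or *Slc32a1* was seen in 332 and 532 control DGC nuclei (14.2% and 26.5%) and in 10 and 83 mutant DGC nuclei (11.1% and 17.9%). Thinned to 1500 UMIs, it was 1.11% to 2.24% in DGCs, 0.414% to 1.01% in CA1, 0.274% to 1.48% in CA3 and 2.10% to 4.30% in inhibitory neurons 5. Unthinned, it was 4.78% to 14.5% in CA1, 9.31% to 20.6% in CA3 and 9.41% to 22.0% in inhibitory neurons 5. All 3 GABA genes together were seen in at most 0.216% of DGC nuclei of any sample, and in 17.1% to 61.5% of inhibitory neurons 5.

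The types that supplied the transcripts differed between genotypes, and so did the types of nuclei. DGCs were 36.1% and 27.9% of control and 1.70% and 4.43% of mutant nuclei. They gave 23.9% and 21.3% of all *Gad1* UMIs in control and 1.41% and 2.81% in mutant replicates, and 33.8% and 29.8% against 1.53% and 5.06% of *Slc17a7* UMIs. Of *Gad2* UMIs, DGCs gave 4.58% and 3.84% in control and 0.136% and 0.295% in mutant replicates. Inhibitory neurons 5, 12 and 18 gave 85.8% to 90.1% of *Gad2* UMIs in all 4 samples, but 63.0% and 64.5% of *Gad1* UMIs in control against 84.2% and 77.8% in mutant replicates. Excitatory neurons 7, 8, 10 and 13 were 34.3% of nuclei in mutant replicate 1, against 5.76% to 11.8% in the other samples.

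Summed over all nuclei of a sample, *Gad2* was at 44.1 and 45.0 CPM after TMM in control and 56.6 and 60.2 CPM in mutant replicates. Both mutant values were higher (share of all genes not counted). The log2 FC was 0.39 (SE 0.13, edgeR FDR = 0.26), and it was 0.04 without DGC nuclei. *Gad1* was at 49.6 and 45.7 CPM in control and 43.7 and 45.5 CPM in mutant replicates (log2 FC -0.09, SE 0.13, edgeR FDR = 0.77). *Slc32a1* had a log2 FC of 0.27 (SE 0.20, edgeR FDR = 0.57) that became -0.10 without DGC nuclei.

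*Slc17a7* over all nuclei was at 243.6 and 253.3 CPM after TMM in control and 196 and 196.1 CPM in mutant replicates. This is a log2 FC of -0.34 (SE 0.13, edgeR FDR = 0.32), and -0.25 without DGC nuclei. *Slc17a8* differed by 0.11 (SE 0.24, edgeR FDR = 0.87), or -0.26 without DGC nuclei. *Slc17a6* was at 12.6 and 8.23 CPM in control and 19.03 and 5.43 CPM in mutant replicates, so that mutant replicate 1, rich in excitatory neurons, set its direction. Its log2 FC was 0.22 (SE 0.57, edgeR FDR = 0.89), and -0.94 without that sample.

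Of the 6 members, 0 passed FC above 2 and FDR below 0.05 over all nuclei by edgeR, as did 0% of the 20575 genes tested. An unadjusted p below 0.05 was reached by 2 members (*Slc17a7* and *Gad2*) and 14.8% of all genes, and by 2 members in DESeq2, which called 0. The lists of other transmitter genes gave 0 calls. The 27 GABA neuron identity genes had a median log2 FC of 0.32 beside 0.02 over all genes, led by *Lhx6* at 0.98 (FDR = 0.21, edgeR) and *Reln* at 0.95 (FDR = 0.16, edgeR).

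Within the types, *Slc17a7* was lower in the mutant in each glutamatergic type, by amounts that did not pass the test. In DGCs it was at 272.1 and 292.3 CPM after TMM in control and 186.5 and 232.6 CPM in mutant replicates, a log2 FC of -0.40 (SE 0.17, edgeR FDR = 0.29). In CA3 it was at 332.1 and 355.2 CPM in control and 278 and 272.9 CPM in mutant replicates (log2 FC -0.32, SE 0.15, edgeR FDR = 0.43). In CA1 it was at 255.2 and 301.8 CPM in control and 230.3 and 248.7 CPM in mutant replicates (log2 FC -0.22, SE 0.16, edgeR FDR = 0.66). The values in CA2, MCs and excitatory neurons 7, 8, 10 and 13 were between -0.37 and -0.19.

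Both mutant samples were below both control samples for *Slc17a7* in 8 of these 9 types, the exception being excitatory neurons 10. This held for 20.9% of all genes over the 9 types. The 9 values come from the same 4 mice, and are not independent. In the 7 other types where it was tested, the log2 FC of *Slc17a7* was -0.24 to 0.36. Of these, both mutant samples were below both controls in OPCs and inhibitory neurons 14 and above in inhibitory neurons 12, and the others overlapped. The share of all genes that separate in this way was not counted in these types. The median UMIs of CA3 nuclei were 10120 and 15190 in control and 6790 and 11720 in mutant replicates. The part of depth in the difference was not tested.

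**Figure D5:**
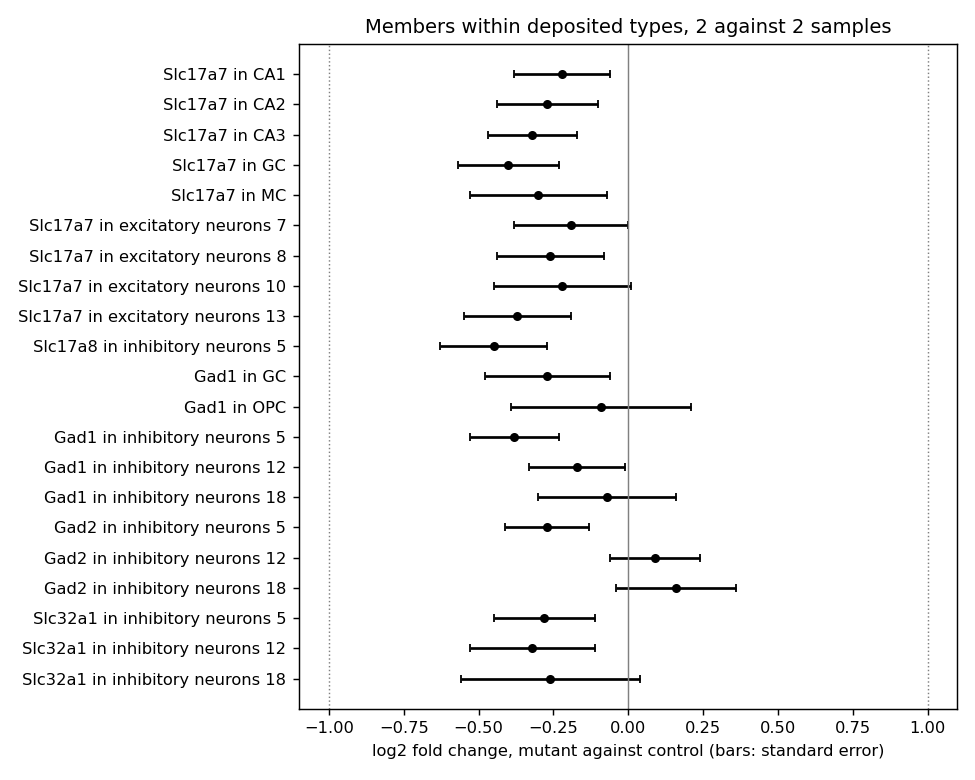
Log2 FC of *Slc17a7*, *Slc17a8*, *Gad1*, *Gad2* and *Slc32a1* within the deposited types they mark, mutant against control, with bars for the standard error (edgeR, 2 against 2 samples), a solid line at 0 and dotted lines at the fold threshold of 2. All 9 values of *Slc17a7* lie between -0.40 and -0.19, and no value reaches a dotted line.

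In inhibitory neurons 5, the largest interneuron type, all 4 members that mark it were lower in the mutant on average and none was called. *Gad1* was at 267.4 and 223.9 CPM after TMM in control and 188.5 and 189.5 CPM in mutant replicates, a log2 FC of -0.38 (SE 0.15, edgeR FDR = 0.41). *Gad2* was at 316.5 and 296.1 CPM in control and 243.8 and 264.6 CPM in mutant replicates (log2 FC -0.27, SE 0.14, edgeR FDR = 0.51). *Slc17a8* had a log2 FC of -0.45 (SE 0.18, edgeR FDR = 0.42). For these 3 genes both mutant samples were below both controls, as for 21.5% of all genes tested in this type. *Slc32a1* overlapped, at 130.8 and 160.4 CPM in control and 131.3 and 109.3 CPM in mutant replicates (log2 FC -0.28, SE 0.17, edgeR FDR = 0.56).

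In type 12 the log2 FC values of *Gad1*, *Gad2* and *Slc32a1* were -0.17, 0.09 and -0.32, with FDR of 0.81, 0.90 and 0.71 (edgeR). In type 18, with 23 and 24 control and 52 and 75 mutant nuclei, they were -0.07, 0.16 and -0.26, with FDR of 0.98, 0.92 and 0.91 (edgeR). *Gad2* was higher in both mutant samples of type 18, at 1040 and 1152 CPM after TMM against 940 and 1026 CPM. The share of all genes higher in both mutant samples was not counted in this type.

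Neither of the types with the second tier of *Gad1* gave a call for it. In DGCs the log2 FC was -0.27 (SE 0.21, edgeR FDR = 0.59) and in OPCs -0.09 (SE 0.30, edgeR FDR = 0.97). *Slc17a6* in excitatory neurons 7 was lower in both mutant samples, as were 17.7% of all genes tested there. Its log2 FC was -0.72 (SE 0.30, edgeR FDR = 0.91). Leaving out mutant replicate 2 gave -0.34, and leaving out mutant replicate 1 gave -1.27. In CA1 *Slc17a6* was at -0.58 (SE 0.41, edgeR FDR = 0.64) with groups that overlapped, and at -0.02 without mutant replicate 2.

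Over the 18 types, 56 tests of members passed the filter on low counts. By edgeR 0 of these were called at FC above 2 and FDR below 0.05, beside 0.19% of all 182213 tests. In DGCs 1.47% of genes were called, and 0 of the 5 members tested. An unadjusted p below 0.05 was reached in 8 of the 56 tests, beside 9.31% of all tests, and in DESeq2, which called 0, in 1. The 3 of these that were higher in the mutant were *Gad1* and *Gad2* in CA2, at 1.53 and 1.55 on the log2 scale (FDR = 0.53 and 0.47, edgeR) from 43 and 46 UMIs, and *Gad2* in excitatory neurons 7, at 1.39 (FDR = 0.91, edgeR) from 65 UMIs.

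Some of the listed identity genes of both transmitters were called in DGCs, where no member was called. Of 11 glutamate neuron identity genes tested in DGCs, 2 fell and 0 rose, beside 1.47% of all 15003 genes tested there that were called. *Nrgn*, a calmodulin-binding postsynaptic protein, went from 385.7 and 410 CPM after TMM to 131.5 and 141.1 CPM (log2 FC -1.53, FDR = 0.0046, edgeR). *Bhlhe22* had a log2 FC of -1.24 (FDR = 0.028, edgeR). Lower values were also seen in other types, none of them called. In CA1 *Nrgn* was at -0.66 and *Bhlhe22* at -0.49 (FDR = 0.42 and 0.50, edgeR). *Bhlhe22* was at -1.55 in inhibitory neurons 5 and -1.99 in astrocytes (FDR = 0.30 and 0.10, edgeR), from low levels. In inhibitory neurons 5 it was at 6.4 and 9.2 CPM in control and 2.4 and 2.9 CPM in mutant replicates. In astrocytes it was at 23.6 and 16.8 CPM in control and 0 and 5.8 CPM in mutant replicates. Whether these UMIs came from the nuclei themselves was not tested. Of 18 GABA neuron identity genes tested, 3 rose and 0 fell, beside the same 1.47% of all genes. *Kcnmb2*, a potassium channel subunit, rose from 16.2 and 18.1 CPM after TMM to 83.7 and 84.7 CPM (log2 FC 2.29, FDR = 0.0016, edgeR). *Nr2f2*, a transcription factor, rose by 2.06 and *Nos1*, nitric oxide synthase, by 1.16 on the log2 scale (FDR = 0.0066 and 0.026, edgeR). None of these 3 is a gene of GABA synthesis or loading. Of 12 genes of glutamate synthesis and uptake, 4 of GABA breakdown and uptake and 3 of other transmitters tested, 0 were called, with the glutamine transporter *Slc38a2* at -0.99 (FDR = 0.029, edgeR), under the fold threshold. The summed DGC markers were 2171 and 2249 CPM in control and 1896 and 1815 CPM in mutant DGCs, and the interneuron markers were as given above. As mutant DGCs are mainly ventral according to the paper, the genotypes also differ in the region that their DGCs come from. The part of region and of other cells in these changes was not tested.

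The genes whose pattern across types was most like that of each member were ranked by Pearson's r of log2(CPM + 1) over 77 units of type and sample, among 10801 genes with at least 50 CPM in a unit. Units of a sample share a library and depth, so r is a description. *Gad2* and *Slc32a1* were closest to each other (r = 0.925), followed for *Gad2* by *Reln* (0.880) and *Dlx6os1* (0.878). For *Gad1* the closest were *Slc32a1* (0.868), *Gad2* (0.848) and *Erbb4* (0.830). For *Slc17a7* they were *Baiap2* (0.910), *Lingo1* (0.864) and *Neurod2* (0.813). *Slc17a6* had lower values, with *Nrg1* (0.732), *Gm28905* (0.729) and *Vwc2l* (0.711), as had *Slc17a8*, with *Vip* (0.609), *Syt6* (0.593) and *Sst* (0.577). *Vip* was thus like *Slc17a8* between types, though low in the nuclei that held *Slc17a8*.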

How the data were processed

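RNA was measured in 4 bulk and 4 snRNAseq samples, 2 mutant and 2 control each, grouped by their labels. For bulk RNAseq the authors deposited expected counts and TPM from RSEM 1.3.0 with Bowtie2 2.2.9 (versions per the submitters' processing notes, build mm10), and a signal matrix of expected counts divided by size factors. For snRNAseq the authors deposited UMI counts per nucleus from Cell Ranger 3.1.0 on a pre-mRNA index, with a type for each nucleus. Clustering and typing are the authors'.

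Expected counts were rounded. Counts, or UMIs summed per sample and type, were compared in edgeR 4.0.16 (R 4.3.3, quasi-likelihood test, filterByExpr, TMM, Benjamini-Hochberg over all genes tested), at FC above 3 (bulk) or 2 (snRNAseq) and FDR below 0.05. EBSeq was not run. The SE of a log2 FC is its size divided by the square root of edgeR's F. Alternatives used DESeq2 1.42.0 and limma 3.58.1 on log2(value + 1). The tests were tested on simulated data. Scrublet marked 0.019% of nuclei in mutant replicate 1, under 0.5%, and is taken not to have worked there. Intervals (95%, exact binomial) cover counting error only. Genes named from lists are those called, at most 4 per list, otherwise up to 2 of the largest differences. The members, lists and tests were chosen with earlier results of these data known. Nothing says that samples of a genotype came from separate litters or days, so p-values measure the spread between these samples.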

Additional observations from a re-analysis of the deposited data

Results flagged for a closer look

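*Gad2* gave values of opposite sign in 2 interneuron types, neither of them past the test (FDR = 0.51 and 0.92, edgeR). Its log2 fold change was -0.27 in inhibitory neurons 5, where both mutant samples were below both controls, and 0.16 in inhibitory neurons 18, where both were above. In inhibitory neurons 12 it was 0.09, with both mutant samples (731.1 and 691.6 CPM after TMM) above both controls (679.9 and 653.5 CPM after TMM). A test of the difference between the types in edgeR gave a log2 difference of 0.47 with an adjusted p of 1 over 12690 genes, and for types 5 and 12 a difference of 0.32 with an adjusted p of 0.63 over 13450 genes. For *Gad1* the difference between types 5 and 18 was 0.35, with an adjusted p of 1 (edgeR). In type 5, 21.5% of all genes had both mutant samples below both controls. The share of all genes with both above was not counted in types 12 and 18. Type 18 rests on 23 to 75 nuclei per sample. With 2 samples per group, no sample could be tested as an outlier.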

How the results depend on the processing

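No member was called under any alternative. The count of members called stayed 0 in bulk RNAseq, over all nuclei and within types with DESeq2, RLE, no filter on low counts, no fold threshold in edgeR, each sample left out, and doublets or DGC nuclei left out. In DESeq2 with no fold threshold it would be 3 in bulk RNAseq. With the replicate number as a block (replicate block) it was 0 in all 3 tests. The numbers are shared by 2 pairs only, with a correlation of deviations of 0.06 in bulk RNAseq, 0.52 over all nuclei and 0.04 to 0.39 within types, and nothing says that they mark a shared day. Of 425 alternative values of 37 log2 fold changes, 405 kept their direction and 20 did not. For 26 of the 37, no alternative reversed it. Under the block, *Slc17a6* over all nuclei was 0 and *Gad1* in OPCs 0.06. With each sample left out, *Slc17a6* was -0.51 to 0.19 in bulk, -0.94 to 0.87 over all nuclei, -0.52 to 0.38 in excitatory neurons 10 and -0.28 to 0.15 in excitatory neurons 13. In the same way *Slc17a7* in excitatory neurons 10 was -0.45 to 0.03, *Gad1* -0.52 to 0.33 in OPCs and -0.24 to 0.23 in inhibitory neurons 18, and *Slc32a1* in inhibitory neurons 18 was -0.48 to 0.07. *Slc17a7* was -0.02 in bulk with TPM, and *Gad1* 0.02 in inhibitory neurons 18 with no filter. Without DGC nuclei, *Slc17a6*, *Slc17a8* and *Slc32a1* over all nuclei were -0.18, -0.26 and -0.10. A comparison of the bulk replicate 1 libraries alone, added after seeing that *Xist* split the libraries, gave 0.27 for *Slc17a6*. The median share of DGC nuclei with *Gad1* over the 4 samples, 17.6%, was 5.11% and 3.48% after thinning to 1500 and 1000 UMIs, by construction, and 2.95% at 2 UMIs or more. Of the 18 genes most like the members, 11 were shared in control samples only and 6 with Spearman's rho. The cause was not tested. Mutant DGCs rest on 90 and 463 nuclei.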
